A study of Mus musculus with 9 samples.

Results

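The CC chemokines described here are Ccl2, Ccl3, Ccl4, Ccl6, Ccl7, Ccl8, Ccl9, Ccl11, Ccl12 and Ccl24 in mouse activated hepatic stellate cells (aHSCs). The 10 genes were taken by symbol or, failing that, by synonym from the probe annotation of the arrays. They were proposed with their levels on these arrays already known, so every difference between groups given for them is a description with no test. A probe was found for 8 of the 10, by 11 of 45281 gene probes, and Ccl8 and Ccl12 were not analysed here. The study does list Ccl12 for WT1-high against WT1-negative cells. The lack of a match here therefore does not mean that the arrays cannot read it. Ccl4, Ccl7 and Ccl11 had 2 probes each, and every member with a probe passed the filter on dim probes.

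Total RNA was hybridised to Illumina whole-genome bead arrays, 1 array per sample, with 3 arrays in each of 3 groups. Per the labels all cells came from male C57/Bl6 mice of genotype WT1GFP/+ (the methods of the study name both sexes for in vitro work in general), in which green fluorescent protein (GFP) reports WT1, the Wilms' tumour transcription factor, from 1 WT1 allele, and all were enriched by density centrifugation before sorting. WT1-high cells (GFP high; arrays 1, 8 and 29) and WT1-intermediate cells (GFP low; arrays 1, 8 and 30) were sorted straight from livers injured chronically with intraperitoneal carbon tetrachloride, and per the study these 6 arrays came from 3 animals. WT1-negative cells (GFP negative; arrays 3, 11 and 14) were sorted after quiescent cells had been activated for 7 days on plastic, so that GFP status and origin in liver or in culture cannot be told apart in any comparison with them. The labels give no ages, and no WT1-negative cells from injured liver and no WT1-positive cells from culture were among the arrays.

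CC chemokines are small secreted proteins named for the adjacent cysteines near their amino terminus, and they attract leukocytes through G protein-coupled receptors of the CCR family. In injured liver they are known for drawing in monocytes, lymphocytes and eosinophils, and both resident macrophages and stellate cells can release them. Most are induced by inflammatory signals through transcription factors such as NF-kappa B. Atypical receptors bind the same ligands without such signalling and clear them.

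Mean signal per array lay between 147 and 289, with median negative control signals of 76.3 to 93.6 and 38.1% to 43.7% of gene probes detected. Before normalization every WT1-intermediate array was dimmer than all others. The mean signals were 184, 221 and 147 on WT1-intermediate, 233, 289 and 231 on WT1-high and 250, 246 and 256 on WT1-negative arrays. Differences between the in vivo groups therefore depend on the scaling, as given in the last section. Background-corrected, quantile-normalized log2 values are termed levels. The lowest level among detected probes was 4.48 to 4.65 depending on the array, and values near it mark a probe at background. Member probes were read from 19 to 58 beads on the 8 arrays whose bead columns were used, and the bead standard error was 1.92% to 6.55% of the signal. The eGFP probe, looked at after its values were seen, read 10.69, 10.53 and 10.48 on WT1-high, 8.63, 8.95 and 8.46 on WT1-intermediate and 4.89, 4.85 and 4.66 on WT1-negative arrays, which is the order of the sort. Of 12 hepatic stellate cell markers, Gfap, Lhx2 and Rgs5 were detected on none of the 9 arrays and Lrat on 1, whereas 4 were detected on all 9.

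Where a member had 2 probes, both are reported, since they did not always give the same picture. The probes of a gene did not overlap in sequence, and no member probe other than that of Ccl24 shared a run of 15 bases with a probe of another gene (1 probe, of Pram1). The first 30 of the 50 bases of each are shown for the genes with a probe pair, as deposited, with no base marked.
Ccl11, brighter probe: cataaacaacctcctctcttgacactaacc
Ccl11, second probe: tcacagaaatttacctgcctctgcctttaa
Ccl4, brighter probe: cccatggagatggtccaccattgctgtttc
Ccl4, second probe: agctttgtgatggattactatgagaccagc
Ccl7, brighter probe: ggaagtctgcgctgaagcccatcagaagtg
Ccl7, second probe: acggtcctaagggataggagctgtctgtag

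Ccl11 was the member whose level set the WT1-intermediate cells apart from both other groups. Ccl11, or eotaxin, attracts eosinophils through Ccr3. It read 9.02, 9.69 and 9.49 on the WT1-intermediate arrays, against 4.61, 5.30 and 5.16 on WT1-high and 5.00, 4.92 and 5.48 on WT1-negative arrays. The WT1-intermediate arrays lay above all 6 others, and the other groups overlapped close to background. The WT1-high level was 20.8-fold below that of WT1-intermediate cells (log2 difference -4.38 ± 0.24, SE, n = 3 and 3) and the WT1-intermediate level 19.2-fold above that of WT1-negative cells (4.27 ± 0.24). The size depends on the handling of background, as the differences were -2.79 and 2.76 with no background correction and -3.41 and 3.36 with an offset of 50.

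The second Ccl11 probe was dimmer and was likewise highest on the WT1-intermediate arrays, but it placed WT1-high above WT1-negative cells without overlap (0.32 on the log2 scale), near background. It read 6.50, 6.91 and 7.93 on WT1-intermediate arrays, 4.47, 4.48 and 4.82 on WT1-high arrays, where it was detected on 1 of 3, and 4.34, 4.22 and 4.26 on WT1-negative arrays, where it was detected on none. By this probe WT1-intermediate cells were at least 5.69-fold above the background limit of WT1-negative cells, the measured means being 7.11 and 4.27. Between WT1-high and WT1-negative cells the brighter probe differed by -0.11 ± 0.24, a value whose sign turned with cyclic loess in place of quantile scaling.

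Ccl24 also attracts eosinophils through Ccr3, but its levels followed another order. WT1-negative arrays read 8.14, 8.62 and 8.38, WT1-intermediate arrays 7.75, 6.49 and 5.43 and WT1-high arrays 5.05, 4.86 and 4.59, of which 2 of 3 were detected. No group overlapped with its neighbour, although the WT1-intermediate arrays were spread widely. The level was 3.31-fold lower in WT1-high cells than in their WT1-intermediate counterparts (-1.73 ± 0.43) and 11.7-fold lower than in WT1-negative cells (-3.55 ± 0.43). WT1-intermediate cells were 3.53-fold below WT1-negative cells (-1.82 ± 0.43). With no background correction these 3 differences were -0.78, -1.97 and -1.19. Leaving out 1 array moved the first to between -2.34 (without WT1-intermediate 30) and -1.15 (without WT1-intermediate 1), and the last to -2.43 without the latter array.

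Ccl2 and Ccl7 encode monocyte chemoattractant proteins, which draw monocytes through Ccr2. Ccl2 read 8.71, 9.28 and 9.87 on WT1-high, 10.34, 8.48 and 9.96 on WT1-intermediate and 9.26, 9.13 and 9.83 on WT1-negative arrays. All 3 groups overlapped, and no difference between group means exceeded its error (-0.31, -0.12 and 0.19 on the log2 scale, each ± 0.43). With errors of this size, equal levels are not shown either.

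The brighter Ccl7 probe read 10.27, 11.06 and 11.11 on WT1-high, 11.87, 11.22 and 11.82 on WT1-intermediate and 12.35, 12.26 and 12.71 on WT1-negative arrays. The groups did not overlap, with WT1-high lowest and WT1-negative highest. The second probe, of nearly the same mean signal, read 10.71, 11.36 and 11.35, then 12.15, 11.54 and 12.00, then 12.38, 11.90 and 11.27 in the same order of groups. Both probes placed WT1-high below WT1-intermediate cells by a like amount (-0.83 ± 0.25 and -0.76 ± 0.28). Against WT1-negative cells they disagreed, since the first put WT1-intermediate cells lower by 0.80 on the log2 scale and the second gave a difference of 0.04 ± 0.28 with overlapping arrays.

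Ccl3 and Ccl4, the macrophage inflammatory proteins 1 alpha and 1 beta, attract monocytes and lymphocytes. Ccl3 read 8.88, 8.16 and 8.32 on WT1-high, 10.07, 9.25 and 8.64 on WT1-intermediate and 11.66, 12.52 and 12.31 on WT1-negative arrays. The in vivo groups overlapped and both lay well below the cultured cells. The level was 13.1-fold lower in WT1-high than in WT1-negative cells (-3.71 ± 0.34) and 7.19-fold lower in WT1-intermediate cells than in cultured WT1-negative cells (-2.85 ± 0.34), while the in vivo groups differed by -0.87 ± 0.34. Median scaling changed the last of these to -0.18 and the second to -3.49.

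Ccl4 showed the same order by both probes. The brighter read 11.40, 10.75 and 10.63 on WT1-high, 12.84, 11.80 and 11.43 on WT1-intermediate and 12.53, 12.81 and 12.87 on WT1-negative arrays. The second read 8.75, 7.85 and 8.25, then 10.75, 9.42 and 9.01, then 10.82, 11.06 and 11.32. WT1-high arrays lay below all others by both probes, and only by the brighter did WT1-intermediate arrays reach into the range of the WT1-negative ones. WT1-high minus WT1-intermediate differences were -1.10 ± 0.32 and -1.44 ± 0.38.

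Ccl6 and Ccl9, which signal through Ccr1 and were first known as products of mouse macrophages, gave 3 groups without overlap. Ccl6 read 6.19, 6.35 and 5.94 on WT1-high, 8.54, 7.83 and 7.85 on WT1-intermediate and 10.76, 11.14 and 10.84 on WT1-negative arrays. Ccl9 read 9.07, 9.14 and 8.62, then 11.82, 11.04 and 10.77, then 12.31, 12.27 and 12.25. No array of a group reached into the next group for either gene. Ccl6 was 3.77-fold lower in WT1-high cells than in their WT1-intermediate counterparts (-1.92 ± 0.21) and 27.0-fold lower than in WT1-negative cells (-4.76 ± 0.21). Ccl9 was 4.81-fold lower in WT1-high cells than in their WT1-intermediate counterparts (-2.27 ± 0.25) and 10.1-fold lower than in WT1-negative cells (-3.33 ± 0.25). Between the in vivo groups median scaling gave -1.23 for Ccl6 and -1.66 for Ccl9, and no background correction gave -1.23 for Ccl6, and -3.77 for Ccl6 in WT1-high against WT1-negative cells. In WT1-intermediate against WT1-negative cells median scaling gave -3.55 for Ccl6 in place of -2.84.

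**Figure D1:**
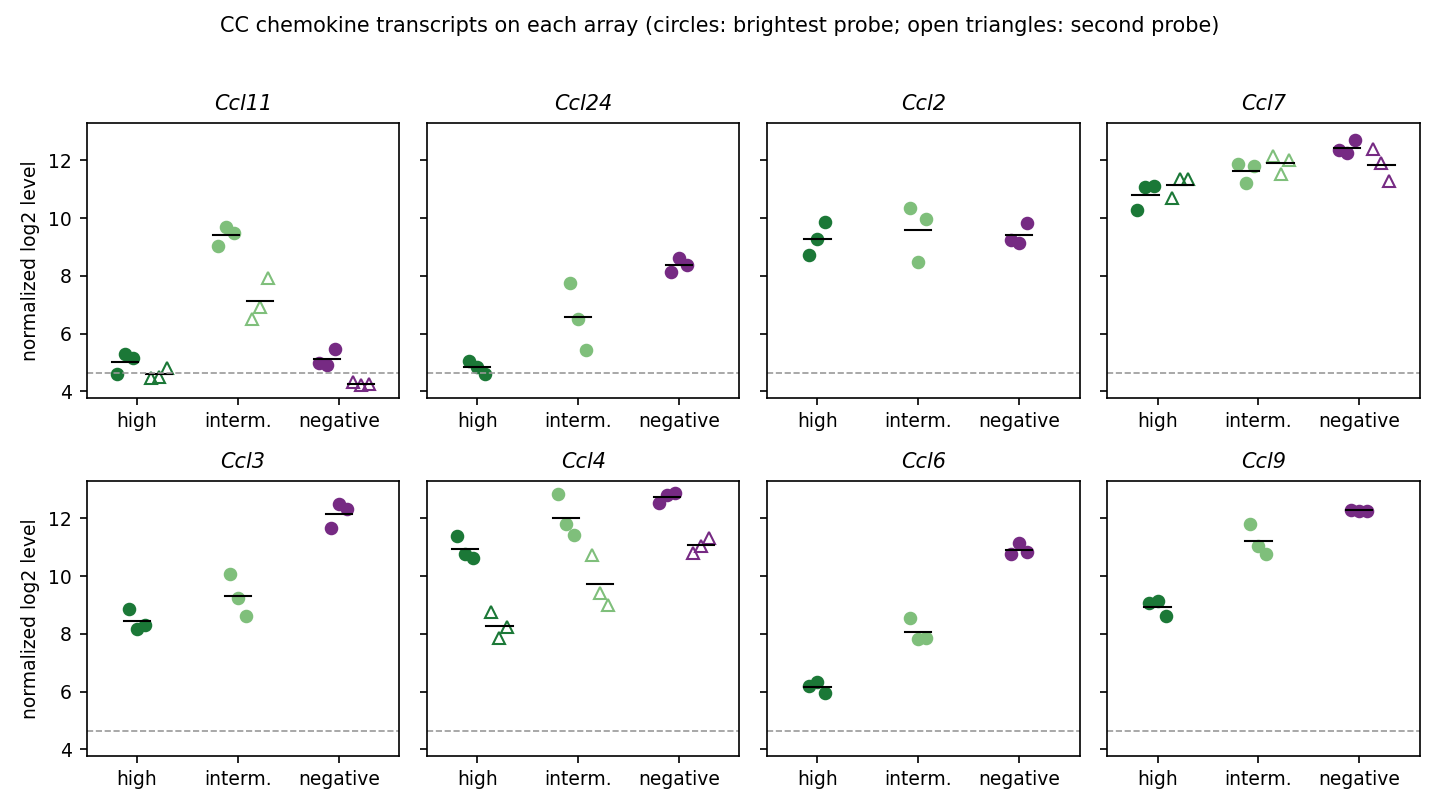
Normalized log2 level (y axis) of each CC chemokine on the 9 arrays by group (x axis; interm., WT1-intermediate), where filled circles are the brightest probe, open triangles the second probe, black bars group means and the dashed line the highest background limit of any array. Ccl11 is raised on the WT1-intermediate arrays alone (9.02 to 9.69), Ccl2 overlaps in all groups, and Ccl24, Ccl6 and Ccl9 step up from WT1-high to WT1-negative cells without overlap.

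Except for Ccl24 on chromosome 5, the members lie on chromosome 11 in RefSeq. Among protein-coding genes Ccl2, Ccl7 and Ccl11 follow each other directly, as do Ccl9, Ccl6, Ccl3 and Ccl4. The genes of the second row were all lower in both in vivo groups than in WT1-negative cells by difference of means, from -0.71 for Ccl4 in WT1-intermediate cells to -4.76 for Ccl6 in WT1-high cells. Those of the first row showed no shared order, with Ccl11 highest in WT1-intermediate cells, Ccl7 split between its probes and Ccl2 overlapping throughout.

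Sequence before the annotated start was held in the promoter table for Ccl3, Ccl6 and Ccl9 of the 8 members measured (RefSeq, build GRCm38.p6). Over the arrays Ccl6 correlated at 0.94 with its neighbour Ccl9 and at 0.96 with its other neighbour Ccl3, whose sequence is not shown. The 150 bases before the start of Ccl6 (chr11:83593088-83593237, minus strand) and Ccl9 (chr11:83578637-83578786, minus strand) are shown, with capitals for the longest run that both hold before the start.
Ccl6: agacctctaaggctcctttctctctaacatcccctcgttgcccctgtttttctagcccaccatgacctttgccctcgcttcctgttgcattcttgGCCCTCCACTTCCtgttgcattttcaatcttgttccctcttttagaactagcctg
Ccl9: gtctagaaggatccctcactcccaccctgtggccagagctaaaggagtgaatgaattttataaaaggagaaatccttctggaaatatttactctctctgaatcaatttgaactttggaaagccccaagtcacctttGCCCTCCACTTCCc
The shared run of 13 bases began at -55 in Ccl6 and at -14 in Ccl9, counted from the annotated start. On either strand 6 of 32851 promoter windows of 300 bases hold it (0.0183%), those of Ccl6 and Ccl9 among them. As the run was picked from the windows of Ccl6 and Ccl9 for its length, nothing is read from its rarity. TATAAA, found in 13.6% of the windows, occurred 3 times in that of Ccl9, 2 of them overlapping on opposite strands, and not in those of Ccl6 or Ccl3. TGANTCA, an AP-1 motif found in 7.81% of windows, occurred at -53 in Ccl9 only, and a kappa B motif, found in 4.51%, at -35 in Ccl9 only. These are matches of letters on both strands of a short window and no evidence of binding.

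Within fibrotic liver, comparing WT1-high with WT1-intermediate cells, the study's contrast of subpopulations, the difference was below 0 for each of the 8 genes by the brightest probe, although that of Ccl2 turned to 0.38 under median scaling. The median was -1.41, against 0.05 over all 20573 probes tested. By limma with Benjamini-Hochberg adjustment over all probes, an adjusted p under 0.05 (a call) was reached by Ccl6, Ccl9 and both probes of Ccl11, that is by 3 of 8 genes, all lower. Over all probes 3.55% were called and 2.64% were called lower. Beside the 3 genes called here, the study lists Ccl4, Ccl7 and Ccl24 for this contrast with adjusted p under 0.05. Each is higher in WT1-intermediate cells there, by the fold found here (for Ccl4 that of the second probe). Why the calls differ was not tested. WT1-high arrays lay below all WT1-intermediate arrays for 6 of 8 genes, all but Ccl2 and Ccl3, while the groups did not overlap for 20.1% of all probes and WT1-high was the lower for 8.60%. Because the genes were chosen from these levels, nothing is read from the counts.

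The replicate numbers paired the in vivo arrays, as the correlation of their deviations showed, and within the pairs 23 of 24 differences were below 0. All 8 genes were lower on WT1-high array 1 than on WT1-intermediate array 1 (median -1.99), 7 of 8 on the arrays numbered 8 (-1.28) and all 8 on WT1-high 29 against WT1-intermediate 30 (-0.83). Ccl11 was almost the same in each pair (-4.41, -4.39 and -4.33), whereas Ccl24 ranged from -2.70 to -0.85 and Ccl2 from -1.63 to 0.80. The first pair showed the largest difference for all 8 genes. With the replicate number as a fixed block, 7 genes were called (all but Ccl2). In that fit arrays 29 and 30 each formed a block alone. Its differences therefore rested on the pairs numbered 1 and 8, without these arrays. With 29 and 30 also taken as a pair, 6 genes were called, Ccl7 then falling short. Over all probes these fits called 8.98% and 7.39%, against 3.55% without the block. Leaving out WT1-intermediate array 30, on which Ccl24, Ccl3 and Ccl4 were lowest of their group, gave 5 calls with Ccl24 and Ccl4 added, and 4.27% of all probes.

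**Figure D2:**
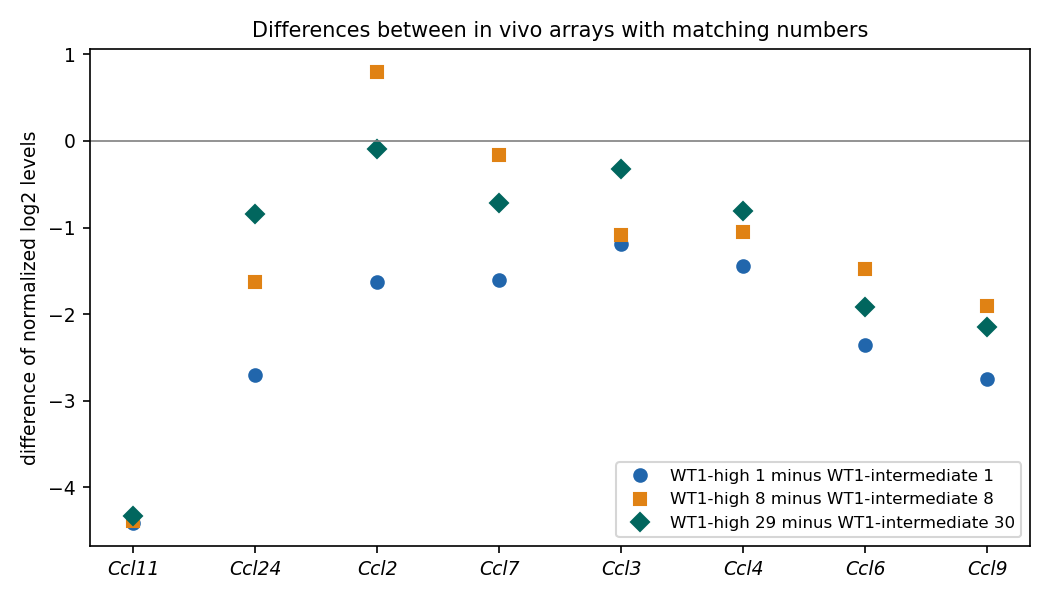
Difference in normalized log2 level between WT1-high and WT1-intermediate arrays (y axis) for each of the 8 CC chemokines by its brightest probe (x axis), 1 symbol per pair of arrays. Ccl11 lies between -4.41 and -4.33 in all 3 pairs, the pair numbered 1 is lowest for every gene, and Ccl2 on the arrays numbered 8 is the 1 difference above 0 (0.80).

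Against WT1-negative cells, WT1-high cells had lower levels of Ccl3, Ccl4, Ccl6, Ccl7, Ccl9 and Ccl24, all 6 called by the brightest probe, with the groups not overlapping. The second Ccl7 probe was also called but gave a smaller difference (-0.71 against -1.63), with overlapping arrays. Ccl2 and Ccl11 did not pass. The median over the 8 genes was -2.57, against -0.10 over all probes, of which 59.6% were called and 33.1% called lower in this comparison, while 68.4% did not overlap and 37.7% did so with WT1-high the lower. Where a comparison calls more than every second probe, a call says little about any 1 gene.

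WT1-intermediate cells had a higher level of Ccl11 than WT1-negative cells, and lower levels of Ccl3, Ccl6, Ccl7, Ccl9 and Ccl24. These 6 of 8 genes were called, against 58.0% of all probes (24.4% higher, 33.6% lower), and the groups did not overlap for the same 6, against 65.5% of all probes. Ccl4 was called by its second probe and not by its brighter one (-0.71 ± 0.32), and Ccl7 by its brighter probe and not by its second. Ccl7 also fell short without WT1-intermediate array 8 (-0.59) or without WT1-negative array 14 (-0.68). The comparisons with WT1-negative cells share those 3 arrays and are not independent of each other.

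**Figure D3:**
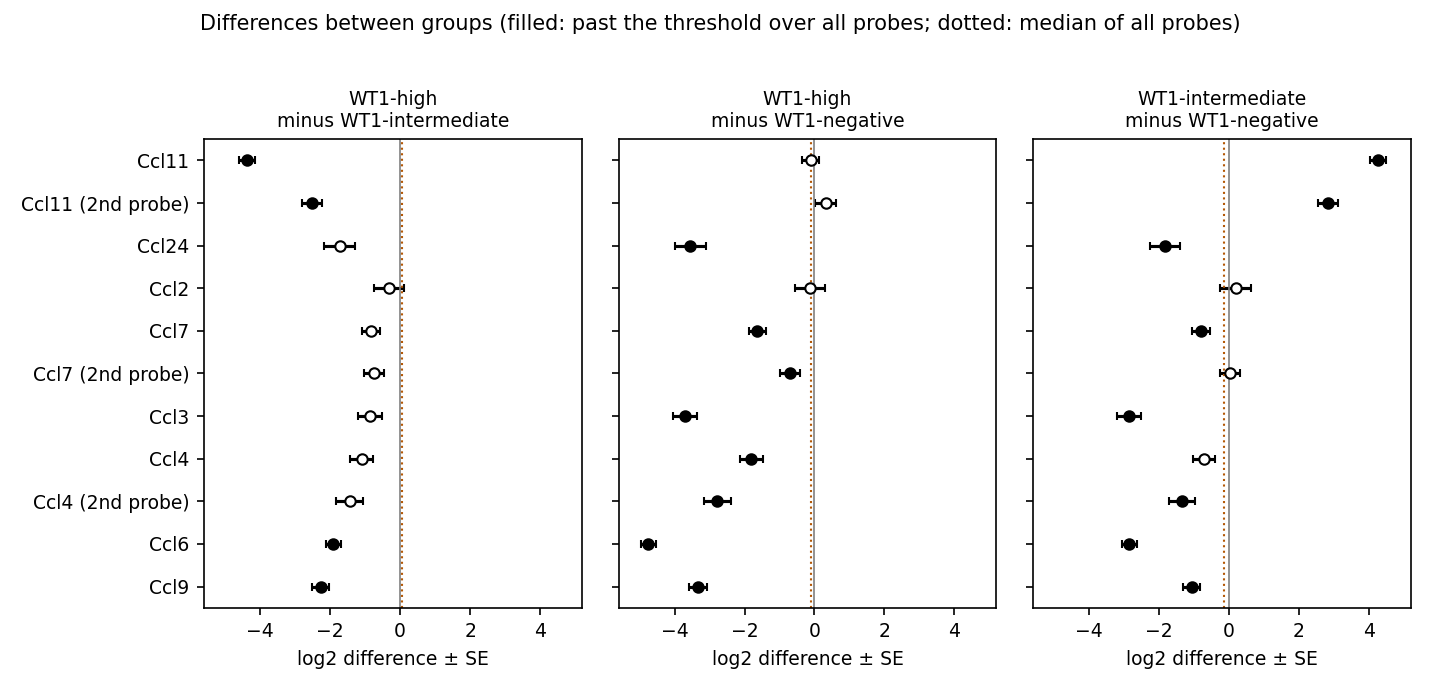
Log2 difference between group means with its SE (x axis) for every probe of the CC chemokines (y axis) in the 3 comparisons, with filled symbols for an adjusted p under 0.05 over all probes and a dotted line at the median of all probes. Ccl11 changes sides between the comparisons (-4.38 for WT1-high minus WT1-intermediate, 4.27 for WT1-intermediate minus WT1-negative), and the second probes of Ccl4 and Ccl7 differ from the first in whether WT1-intermediate minus WT1-negative was called.

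Macrophage markers, taken as a sum in which bright genes weigh most, followed the order of groups seen for some of the members. Their levels, summed on the linear scale over 20 listed genes, were 6312 to 9957 on WT1-high, 19740 to 34523 on WT1-intermediate and 59235 to 64129 on WT1-negative arrays, the order seen for Ccl6, Ccl9 and Ccl24. All 19 markers kept were lower in WT1-high cells than in their WT1-intermediate counterparts by difference of means, 13 of them called (median -1.78). Lyz1, a lysozyme, differed by -4.11 ± 0.38 (limma adjusted p = 0.00027), and C1qa, C1qc and C1qb, subunits of complement component 1q, by -2.83, -2.62 and -2.55 (limma adjusted p = 7.3e-06, 4.5e-05 and 0.00011). Under median scaling, or with no filter on dim probes, 6 markers were called.

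Of the markers, Cd5l alone was detected on no array. In every pair of in vivo arrays all 19 were lower on the WT1-high array, with medians of -2.01, -1.69 and -1.81 for the pairs in the order given above. Between WT1-high and WT1-negative cells 13 were called lower and 1 higher (median -2.28), and between WT1-intermediate and WT1-negative cells 7 lower and 5 higher (median -0.69). Lyz1 was among the exceptions, at 8.27, 9.76 and 8.98 on WT1-intermediate arrays and 4.38, 4.28 and 4.92 on WT1-negative arrays, as Ccl11 was among the chemokines. The part of macrophages in the levels of the members was not tested. In RNA from sorted populations, fewer cells of a type and less RNA per cell cannot be told apart.

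Markers of other cell types were compared between the in vivo groups in the same way. Of 8 eosinophil markers 3 were kept, and Ear2 alone was called (-1.37 ± 0.22, limma adjusted p = 0.0078), while Epx, which encodes eosinophil peroxidase and was looked at after its values were seen, was detected on 1 of 9 arrays, WT1-intermediate 30. The summed level of this list was 718 to 807 on WT1-high, 1458 to 1808 on WT1-intermediate and 93.0 to 161 on WT1-negative arrays. None of the markers kept for T and NK cells (7), B cells (3), neutrophils (8) or mast cells and basophils (2) was called by limma, and 1, 1, 0 and 0 of them had an unadjusted p under 0.05. Of monocyte and dendritic cell markers 1 of 6 was called, Ly6c1 (-1.17 ± 0.26, limma adjusted p = 0.032). Of 10 endothelial markers Eng, Stab2 and Tek were called lower (-0.98, -0.93 and -0.77; limma adjusted p = 0.006, 0.038 and 0.036). Of 8 stellate cell markers kept Des was called higher (1.40 ± 0.33) and Pdgfrb and Hgf lower (-1.28 ± 0.20 and -1.16 ± 0.27; limma adjusted p = 0.045, 0.0055 and 0.041), and of 10 fibroblast markers Acta2 was called higher (0.76 ± 0.17, limma adjusted p = 0.035). All 5 hepatocyte markers kept had a higher mean in WT1-high cells, 0 of them called by limma and 2 with an unadjusted p under 0.05. Their list summed to 5640 to 8716 on WT1-high, 2920 to 4783 on WT1-intermediate and 3328 to 4774 on WT1-negative arrays. Trf alone, at 12.5, 11.7 and 11.9 in group means in that order, made up most of these sums. Apoa1, Serpina1a and Cyp2e1 were detected on no WT1-negative array. Mesothelial markers ran the other way from the macrophage markers. Their summed level was 29893 to 36364 on WT1-high, 17771 to 25329 on WT1-intermediate and 77.8 to 122 on WT1-negative arrays. Between the in vivo groups 1 of 10 was called higher in WT1-high cells (Dmkn, 0.92 ± 0.17, limma adjusted p = 0.016). Their part in the results on the members was not tested either.

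Most CC chemokine receptors looked at were not detected. Of 10 receptors 2 passed the filter and 6 were detected on no array, among them Ccr1 and Ccr2, while Ccr3, the receptor of Ccl11 and Ccl24, was detected on 1.

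Ccr6 and Ccr7, which guide lymphocytes and dendritic cells, were low but detected on all 6 in vivo arrays and on no WT1-negative array by the brighter probe. They did not differ between the in vivo groups beyond the spread (0.28 ± 0.19 and 0.12 ± 0.15). Against the background limit of WT1-negative cells they were at least 1.99-fold and 2.14-fold higher in WT1-high cells (limma adjusted p = 1e-04 and 3e-05). The second Ccr6 probe, near background throughout, was not called.

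All 4 scavenging and atypical receptors were kept. Ackr2 (Ccbp2 in the annotation), which degrades inflammatory CC chemokines, read 4.27, 4.34 and 4.47 on WT1-high arrays, where it was not detected, 6.32, 5.71 and 6.61 on WT1-intermediate and 5.61, 5.29 and 4.75 on WT1-negative arrays. WT1-intermediate cells exceeded WT1-high cells at least 3.17-fold (limma adjusted p = 0.003), and its highest group was that of Ccl11. Ccrl2 was bright in all groups (9.63, 9.89 and 8.51 in group means) and higher in both in vivo groups than in WT1-negative cells (limma adjusted p = 0.0038 and 0.001). Ackr4 was called higher in both in vivo groups than in WT1-negative cells by its brightest probe (0.96 ± 0.24 and 0.67 ± 0.24), though between the in vivo groups that probe gave 0.29 ± 0.24 and a dimmer one -0.80 ± 0.19 (limma adjusted p = 0.044). Ackr1 was called in WT1-intermediate against WT1-negative cells alone (at least 1.59-fold, limma adjusted p = 0.0022).

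Of 14 other CC chemokines listed 12 had a probe and 7 were kept, of which 5 were lower and 2 higher in WT1-high cells than in their WT1-intermediate counterparts (median -0.38) and 1 was called. That was Ccl19, a ligand of Ccr7, which read 5.08, 4.88 and 5.10 on WT1-high, 6.36, 6.39 and 6.63 on WT1-intermediate and 5.00, 4.78 and 5.63 on WT1-negative arrays (-1.44 ± 0.21 between the in vivo groups, limma adjusted p = 0.004). Its highest group was again the WT1-intermediate one, as for Ccl11.

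Against WT1-negative cells none of the 7 was called lower, whereas 4 were called higher on the WT1-high arrays and 6 on the WT1-intermediate ones. Ccl5, which lies beside Ccl9 in RefSeq and attracts T cells, read 9.19, 9.55 and 10.45 on WT1-high, 9.59, 10.39 and 10.55 on WT1-intermediate and 4.55, 4.47 and 5.10 on WT1-negative arrays, the last detected on 1 of 3. WT1-high cells exceeded them by 5.02 ± 0.33 and WT1-intermediate cells by 5.47 ± 0.33 on the log2 scale (limma adjusted p = 3.4e-07 and 2.3e-07). The 4 members next to it were lower in the in vivo cells, as given above. T and NK cell markers, which also lay higher in vivo, summed to 716 to 1248, 717 to 1397 and 51.0 to 64.1 in the 3 groups, and their part was not tested.

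Of the rest, Ccl27a (8.13, 7.84 and 6.28 in group means) was higher in both in vivo groups than in WT1-negative cells (limma adjusted p = 6.9e-06 and 3.1e-05). Ccl21a and Ccl21c were detected on the in vivo arrays only, at least 1.57-fold and 1.52-fold above the WT1-negative background limit in WT1-high cells. Near-identical copies of Ccl21 and Ccl27 exist in the mouse, so which copy was read is uncertain. Ccl25 was not called in any comparison, and Ccl1 was called in WT1-intermediate against WT1-negative cells alone, close to background. Ccl17, Ccl20, Ccl22, Ccl26 and Ccl28 did not pass the filter.

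**Figure D4:**
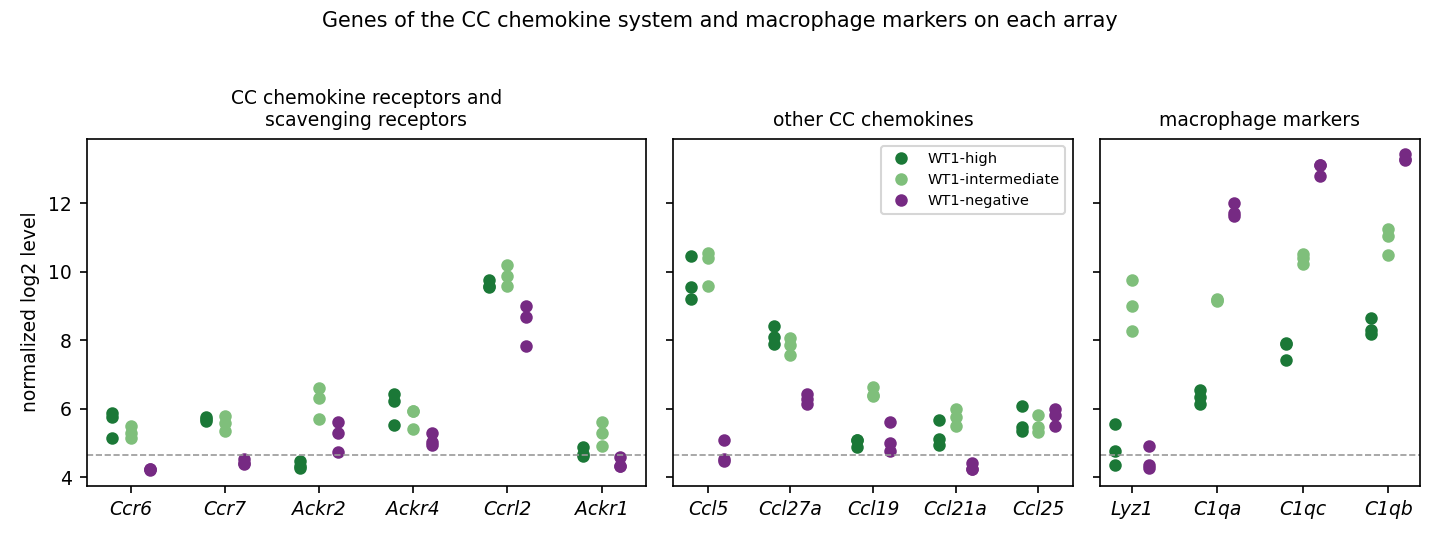
Normalized log2 level (y axis) on each array of receptors, other CC chemokines and the 4 macrophage markers with the largest difference between the in vivo groups (x axis), 3 points per group, with the dashed line at the highest background limit of any array. C1qa, C1qb and C1qc step up from WT1-high to WT1-negative cells, Ackr2, Ccl19 and Lyz1 are highest on the WT1-intermediate arrays, and Ccl5 is near background on the WT1-negative arrays (4.47 to 5.10).

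Among signals known to induce CC chemokines, none of 13 NF-kappa B components and inhibitors was called between the in vivo groups by limma (median 0.13; 2 had an unadjusted p under 0.05), Tnfaip3 having the largest difference (0.44 ± 0.15, limma adjusted p = 0.15). Of 14 inflammatory cytokines and receptors Ifngr2 and Il1a were called lower in WT1-high cells (-1.46 ± 0.24 and -1.01 ± 0.17, limma adjusted p = 0.0086 and 0.0092), while Il1b and Il6 were not (-0.91 ± 0.44 and -0.79 ± 0.35). Of 11 genes of interleukin 4 and 13 signalling and alternative activation, which induce eotaxins, Arg1 and Mrc1 were called lower (-3.65 ± 0.28 and -1.09 ± 0.16, limma adjusted p = 8.7e-05 and 0.0038), as was Retnla, which was not detected in WT1-high cells (at least 1.71-fold, limma adjusted p = 0.029). Of these 11 genes 8 were lower and 3 higher in WT1-high cells (median -0.27), and 8 were not called. Arg1 encodes arginase, and Mrc1 the macrophage mannose receptor. Unlike Ccl11, both had their highest mean in WT1-negative cells (12.97 and 12.17, against 10.83 and 7.57 in WT1-intermediate cells). Retnla, like Ccl11, had its highest mean in WT1-intermediate cells (5.32, against 4.63 in WT1-negative cells). Their part in the levels of Ccl11 and Ccl24 was not tested.

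Among the members, correlations over the 9 arrays ranged from -0.28 (Ccl11 with Ccl3) to 0.97 (Ccl24 with Ccl4), with a median of 0.79 over 28 pairs of genes. Ccl3, Ccl4, Ccl6, Ccl7, Ccl9 and Ccl24 correlated with each other at 0.76 or above, and Ccl11 and Ccl2 with all others at 0.43 or below. These describe 9 arrays in 3 groups that share the contrast of liver and culture.

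The pattern of each member over the 9 arrays was most like that of the following genes among 14651 compared, by Pearson's r and with no test. For Ccl11 these were Igsf10 (0.99), Lyz1 (0.98) and Gdf10 (0.98). For Ccl6 they included Nrp1 and Aatk (both 1.00), and for Ccl9 Dok2, Capg and Dnase2a (0.99 each). Ccl24 was most like AB124611, Cd80 and Hcls1 (0.99 each), Ccl3 like Fance, Renbp and Homez (1.00, 0.99 and 0.99), and Ccl4 like Apobec1, Ncf4 and Slc29a3 (0.99, 0.98 and 0.98). For Ccl7 they were Il2rg, Gpr137b-ps and Snap23 (0.97, 0.96 and 0.95), and for Ccl2 LOC381873, Asphd2 and Ercc8 (0.94, 0.89 and 0.88).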

How the data were processed

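The deposited values were summary probe profiles that the authors exported from BeadStudio, with 1 linear intensity for each probe and no background correction or normalization yet applied. Each came with a deposited detection p-value (share of the negative controls that are brighter) and, per the file headers, a bead count and a bead standard error. The authors' processing notes name limma.

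With limma 3.58.1 in R 4.3.3, neqc (background from 936 negative controls, quantile normalization, log2, offset 16) was applied to all 9 arrays, as the study outlines, though its parameters are not given in the sources used here. Of 45281 probes, the 20573 with a detection p under 0.05 on 3 or more arrays were kept. A 3-group linear model was fitted, with moderated two-sided tests and Benjamini-Hochberg adjustment over all probes kept. Errors are SE of the fit, and the number of arrays limits the precision. The p-values weigh a difference against the spread between arrays. As the reported fit has no block, they treat the paired in vivo arrays as independent. "At least" folds are against the mean, over the dimmer group's arrays, of the lowest level among detected probes or the probe's own level, whichever is higher.

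Of the list entries, 11 were matched by Entrez gene ID, 2 by an older symbol and 9 had no probe. All others matched by symbol. 1 item is not reported here. The members and lists were chosen with earlier results of these data known. Named were every member probe, every gene of the CC chemokine and receptor lists called or detected on all 3 arrays of a group, and of each other list at most the 4 genes with the largest difference between the in vivo groups. Exceptions are marked as chosen after their values were seen.

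Deviations from the group mean, over all probes, correlated at 0.35 between the in vivo arrays numbered 1, 0.34 between those numbered 8 and 0.47 between 29 and 30, and at -0.39 to 0.03 in the other 6 combinations, and the study gives 3 animals for these 6 arrays. A column numbered 29 in the table was taken as WT1-intermediate 30, the only array of its group left, whose values a second deposited table repeats (largest difference 0), and its bead columns were not used. The replicate block, other scalings, offsets, filters and fits, and leaving out each array, were the alternatives tried. Simulated data served to test each step.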

Additional observations from a re-analysis of the deposited data

How the results depend on the processing

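Of the 525 alternative values computed for the log2 differences of the members, 490 kept both their direction and their side of the threshold. Between WT1-high and WT1-intermediate cells, 3 genes were called in the reported fit and 3 or 4 under every other scaling, background correction, offset, filter and fit without a block. The fixed replicate block, to whose differences arrays 29 and 30 add nothing, gave 7, and the random replicate block 5. The random block with 29 and 30 as a pair gave 6. The fixed block with that pair, chosen after seeing the data, also gave 6. In the comparisons with WT1-negative cells no fixed block could be fitted, as no numbers are shared, and the random block left both counts at 6. Calls of genes outside the lists of CC chemokines, CCR family receptors and macrophage markers are given for the reported fit only. Leaving out 1 array gave 3 to 5, 6 to 6 and 5 to 7 calls in the 3 comparisons. The slide as a block was not run, because the files used here name no slide.

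Differences that turned sign were all small in the reported fit. For Ccl11 in WT1-high against WT1-negative cells, cyclic loess gave 0.070, the mean over both probes 0.10 and leaving out 1 array -0.23 to 0.094. For Ccl2, median scaling gave 0.38 in WT1-high against WT1-intermediate and -0.52 in WT1-intermediate against WT1-negative cells, where array weights gave -0.072. Leaving out 1 array gave Ccl2 differences of -0.87 to 0.062 in WT1-high against WT1-intermediate, -0.41 to 0.17 in WT1-high against WT1-negative and -0.18 to 0.75 in WT1-intermediate against WT1-negative cells. The cause was not tested.

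Median scaling moved the median of all probes between the in vivo groups from 0.05 to 0.45, so that the Ccl2 value above lies below that shift. It gave 2684 called probes, 2563 higher and 121 lower, against 730, 186 higher and 544 lower, in the reported fit. The other settings gave 324 (without WT1-intermediate array 1) to 1847 (fixed replicate block). Between WT1-intermediate and WT1-negative cells, 5029 probes were called higher and 6906 lower in the reported fit, 2545 and 8456 under median scaling and 5857 and 5591 under cyclic loess. The macrophage markers called between the in vivo groups numbered 6 to 18 against 13. With probes detected on all 9 arrays alone, Ccr6 and Ccr7 were not tested, and in the comparisons with WT1-negative cells 1 and 2 other CC chemokines were called against 4 and 6. A minimum of 2-fold left 2 of the 4, and median scaling gave 2 other CC chemokines called between the in vivo groups against 1. Dim levels, such as those of Ccl11 and Ccl24 on WT1-high arrays, are limited by background.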
